A study of Rattus norvegicus with 4 samples.

Results

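The genes described here are those of SREBP-1c and fatty acid synthesis, across 4 rat liver libraries. They are 10 genes chosen by symbol from the 31457 rows of the deposited table: Srebf1, Mlxipl, Fasn, Acly, Acaca, Acacb, Scd1, Elovl6, Thrsp and Mid1ip1. Each symbol matched 1 row. All 10 had values other than 0 and passed a filter on low levels, as did 10593 genes in all. Poly(A) RNA from livers of LEWIS rats (allotype RT1L) was sequenced on an Illumina MiSeq, with 1 library per group. The naive control liver carries no mark of surgery in its sample label. The other 3 livers came from rats after partial hepatectomy (PH), in which some liver lobes are cut away and the rest regrows, followed by an intravenous dose of saline, of ASCs-siRNC or of ASCs-miR27b. The labels spell out neither ASCs nor siRNC. The groups are called naive, saline, siRNC and miR-27b below. The sources used here do not state age, sex, feeding, time from surgery to collection or the number of animals behind each library.

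In the liver, carbohydrate is turned into fat by a short chain of cytosolic enzymes whose transcription follows insulin and glucose. SREBP-1c, a membrane-bound transcription factor made from Srebf1, is released by proteolysis and switches on most of these genes, while ChREBP, made from Mlxipl, responds to glucose metabolites. Acly makes acetyl-CoA from citrate, the acetyl-CoA carboxylases make malonyl-CoA, Fasn builds palmitate, and Elovl6 and Scd1 lengthen and desaturate it. Thrsp (Spot 14) and Mid1ip1 (MIG12) are small related proteins, of which MIG12 promotes the polymerisation of acetyl-CoA carboxylase.

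The small RNA named by the labels is shown first, since it is the feature that separates the miR-27b from the siRNC liver. The labels do not say which arm of the hairpin was used, so both mature rat sequences are given 5′ to 3′ from RefSeq (GRCr8, Mir27b, minus strand), with the seed, bases 2 to 8, in capitals. No target site in the 10 genes was searched for.
rno-miR-27b-3p, chr17:1819163-1819183: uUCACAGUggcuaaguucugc
rno-miR-27b-5p, chr17:1819202-1819225: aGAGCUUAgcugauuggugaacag

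The promoters that follow belong to members at least 2-fold higher in the siRNC than in the saline liver, a group whose values are given below. They run from 250 bases before to 50 bases after the annotated start, 5′ to 3′ on the gene's strand, from RefSeq on GRCr8, which is not the rn5 build of the deposited values. Gene IDs matched 7 of the 10 genes; Fasn, Acaca and Elovl6 had no entry. Capitals mark matches, on either strand, to the CCAAT box (CCAAT, bound by NF-Y) and the GC box (GGGCGG, bound by Sp1 family factors), which do not overlap each other here. For Srebf1 the table holds 2 starts, and the downstream start is shown, since SREBP-1c is transcribed from a start downstream of that of SREBP-1a. The deposited row does not separate these isoforms.
Srebf1 promoter, chr10:45518961-45519260, minus strand: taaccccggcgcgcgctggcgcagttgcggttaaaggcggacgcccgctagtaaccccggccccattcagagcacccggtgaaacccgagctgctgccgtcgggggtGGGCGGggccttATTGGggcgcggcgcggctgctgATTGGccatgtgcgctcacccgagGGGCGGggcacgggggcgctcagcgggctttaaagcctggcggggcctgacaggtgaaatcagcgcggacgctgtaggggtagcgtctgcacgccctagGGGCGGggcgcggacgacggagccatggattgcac
Acly promoter, chr10:85963582-85963881, minus strand: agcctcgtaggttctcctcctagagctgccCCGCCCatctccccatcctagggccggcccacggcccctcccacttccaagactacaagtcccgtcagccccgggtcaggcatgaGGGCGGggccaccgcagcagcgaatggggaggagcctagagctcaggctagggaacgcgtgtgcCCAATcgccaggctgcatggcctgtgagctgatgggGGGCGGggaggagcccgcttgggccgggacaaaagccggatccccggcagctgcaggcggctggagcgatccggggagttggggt
Acacb promoter, chr12:48138165-48138464, minus strand: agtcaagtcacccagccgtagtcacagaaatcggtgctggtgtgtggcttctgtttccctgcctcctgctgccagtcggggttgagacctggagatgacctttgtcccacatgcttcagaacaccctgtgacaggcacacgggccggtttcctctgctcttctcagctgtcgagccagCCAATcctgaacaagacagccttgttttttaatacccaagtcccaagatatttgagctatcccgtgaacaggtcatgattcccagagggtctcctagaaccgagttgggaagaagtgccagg
Thrsp promoter, chr1:161138915-161139214, minus strand: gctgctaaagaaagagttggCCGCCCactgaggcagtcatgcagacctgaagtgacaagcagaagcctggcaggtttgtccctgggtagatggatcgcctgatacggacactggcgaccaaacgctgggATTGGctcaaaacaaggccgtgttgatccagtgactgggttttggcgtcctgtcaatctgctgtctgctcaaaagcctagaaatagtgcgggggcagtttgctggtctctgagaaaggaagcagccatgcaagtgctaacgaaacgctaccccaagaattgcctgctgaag
Mid1ip1 promoter, chrX:14735671-14735970, minus strand: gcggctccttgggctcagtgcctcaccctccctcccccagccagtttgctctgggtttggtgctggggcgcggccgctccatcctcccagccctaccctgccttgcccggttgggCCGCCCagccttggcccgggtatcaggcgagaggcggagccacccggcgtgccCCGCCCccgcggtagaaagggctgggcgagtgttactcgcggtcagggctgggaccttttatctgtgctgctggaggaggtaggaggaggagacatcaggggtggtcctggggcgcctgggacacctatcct

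A CCAAT box was found in 7 of the 9 promoters of the matched genes (5 of 7 genes) and in 37.5% of 33465 promoters of this length in the table. The Srebf1 window shown holds 2, on the opposite strand, at positions -131 and -108 from the start. The 2 Mlxipl promoters share almost all their sequence, so the same CCAAT boxes are counted in both. A GC box was found in 5 of the 9 promoters (4 of 7 genes) and in 33.1% of all promoters, with 3 in that Srebf1 window and 3 in Acly. The share of G and C was 70.7% in that Srebf1 window, 69% in Acly and Mid1ip1 and 53.7% in Acacb and Thrsp. The median over all promoters was 51.7%. The core sterol response element TCACNCCAC was in none of the 9 member promoters and in 1.12% of all, and the E-box CACGTG was in none of the 9 and in 6.42% of all. Only these exact letters were searched, so the absence of a match does not show that the promoters lack such elements in other forms. These matches are letters in a window and were not tied to any measured difference.

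The deposited values are log2 values relative to a baseline of each gene, so they compare libraries within a gene and give no level of 1 gene against another. With 1 library per group there is no replicate check and no test between conditions, and a gene is called higher or lower at 2-fold or more, a difference of 1 on the log2 scale. Depth, and so precision, was judged from how finely each deposited number is stored in binary. This places Srebf1, Fasn, Acly, Acaca, Scd1, Thrsp and Mid1ip1 at 256 normalized reads or more, Mlxipl and Acacb at 16 or more, and Elovl6 at 4 or more. At those bounds counting error alone gives a log2 difference an SD of 0.13, 0.51 and 1.02. For the class of 256, the check on simulated data did not ask for that level in every library. The lowest library of such a gene may therefore hold fewer reads. The size factors of the 4 libraries lay between 0.956 and 1.04. Hepatocyte markers were measured for 10 of 10 genes and none was 2-fold apart between any pair of libraries. In bulk liver RNA, fewer cells of a type and less RNA per cell cannot be told apart.

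The transcription factor gene Srebf1 (gene ID 78968) had values of 0.67 (naive), -1.45 (saline), 0.72 (siRNC) and 0 (miR-27b). The saline liver was lowest, the naive and siRNC livers were nearly level at the top, and the miR-27b liver lay between. The saline liver was 4.34-fold below the naive and the siRNC liver 4.47-fold above the saline. Mlxipl (gene ID 171078), which encodes ChREBP, had 0.83 (naive), 0 (saline), 0.028 (siRNC) and -0.19 (miR-27b). Its naive value stood above all 3 hepatectomised livers, which lay close together. Of these 2 factor genes, Srebf1 was 2.13 log2 units further up than Mlxipl from the saline to the siRNC liver, and 1.29 further down from the naive to the saline liver.

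Acly (gene ID 24159), the ATP citrate lyase that supplies cytosolic acetyl-CoA, had -0.095, -0.53, 1.07 and 0.52 across naive, saline, siRNC and miR-27b liver. The siRNC liver was highest and the saline liver lowest, a range of 3.03-fold. The carboxylase of the cytosol, Acaca (gene ID 60581), had -0.89, -0.26, 0.021 and 0.046 in the same order. It was lowest in the naive liver and differed little among the hepatectomised livers. Acacb (gene ID 116719), the carboxylase at the mitochondrial surface whose malonyl-CoA restrains fatty acid import, had -0.41, -1.19, 0.10 and 0. From the naive to the saline liver these carboxylase genes went opposite ways, by 0.63 for Acaca and -0.78 for Acacb, neither past 2-fold.

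Fasn (gene ID 50671), the fatty acid synthase, had -0.29, -1.28, 0.85 and 0.64 across naive, saline, siRNC and miR-27b liver. The saline liver stood apart at the bottom and both ASC-treated livers lay above the naive liver. Elovl6 (gene ID 171402), which elongates palmitate to stearate, had -0.26, -0.34, 1.53 and 0.27. Here the siRNC liver stood alone at the top, 3.67-fold above the saline liver, and the other 3 libraries lay within 0.61 of each other. Scd1 (gene ID 246074), the main hepatic stearoyl-CoA desaturase, had 0.55, -0.51, -0.32 and 0.42. Its naive and miR-27b values were high and its saline and siRNC values low, an order that differs from that of Fasn. The row Scd (gene ID 83792, also named Scd2) had 0, -0.34, 0.22 and 0.29; as these desaturase genes are close copies, reads may be shared between them.

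Thrsp (gene ID 25357), a lipogenic protein induced by thyroid hormone and carbohydrate, had -0.70, -0.68, 0.94 and 0.64 across naive, saline, siRNC and miR-27b liver. Its naive and saline values were level and its values in both ASC-treated livers were high. Its relative Mid1ip1 (gene ID 404280) had 0.53, -1.86, 0.68 and -0.68. Mid1ip1 had the widest range of the 10 genes, 5.82-fold, with the saline liver lowest and the miR-27b liver second lowest. From the naive to the saline liver Thrsp differed by 0.011 and Mid1ip1 by -2.39.

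**Figure D1:**
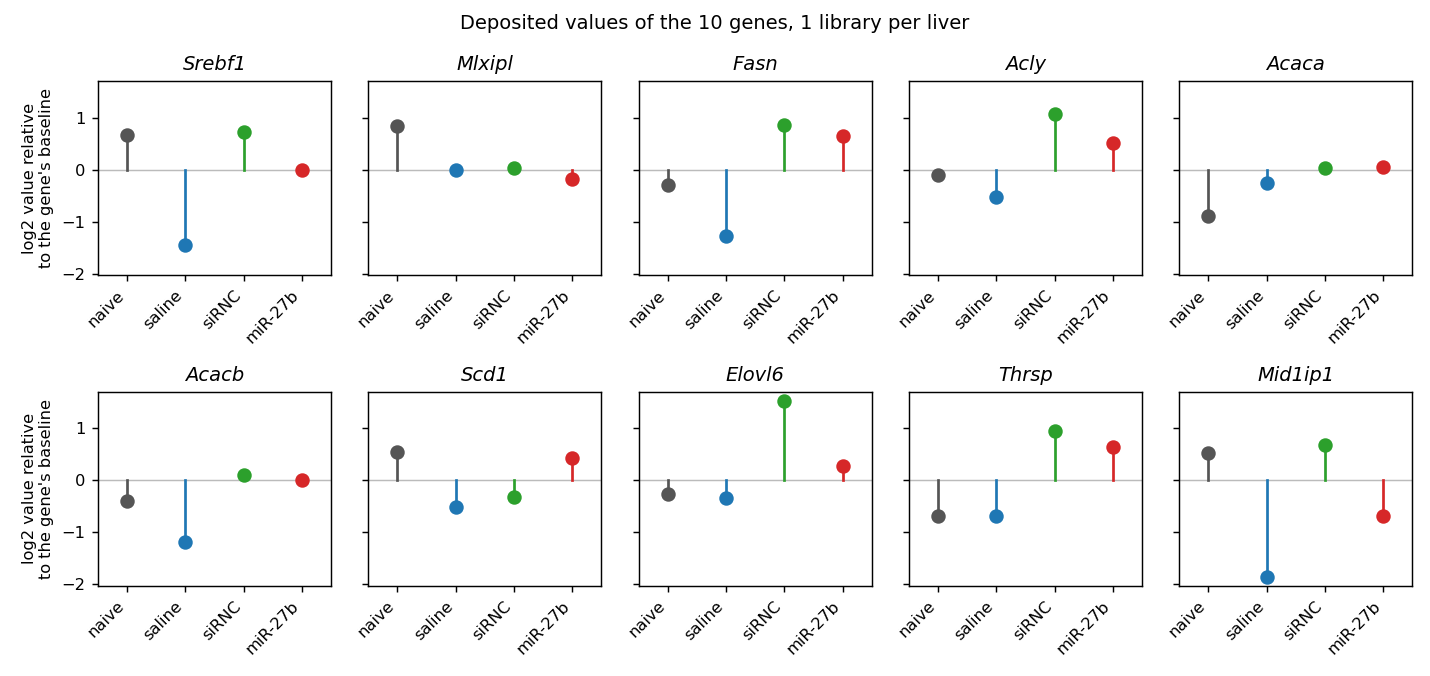
Deposited log2 value of each of the 10 genes (vertical axis, relative to the baseline of that gene) in the naive, saline, siRNC and miR-27b libraries, 1 point per library. The saline library is the lowest in 7 panels and the siRNC library the highest in 7.

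Over the 10 genes the saline liver was the lowest of the 4 libraries in 7 and the siRNC liver the highest in 7. Over all 10593 genes the saline liver was lowest in 22.1% and the siRNC liver highest in 21.5%. The exceptions at the bottom were Mlxipl, lowest in the miR-27b liver, and Acaca and Thrsp, lowest in the naive liver. At the top, Mlxipl and Scd1 were highest in the naive liver and Acaca in the miR-27b liver.

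The comparison of saline with naive liver sets a hepatectomised liver against the control labelled naive. Srebf1 (-2.12), Mid1ip1 (-2.39) and Scd1 (-1.06) were lower in the saline liver by 2-fold or more, and none of the 10 was 2-fold higher. Fasn lay just inside the threshold at -0.99, and Mlxipl (-0.83), Acacb (-0.78), Acly (-0.44) and Elovl6 (-0.086) were also below 0. The median of the 10 was -0.81, against -0.0083 over all genes, of which 4.66% were 2-fold lower and 6.83% 2-fold higher. The saline liver also differed in other cell types: 9 of 9 measured macrophage markers and 6 of 7 erythroid markers were at least 2-fold higher, with medians of 1.28 and 2.36. Of stellate cell and matrix markers 4 of 9 and of endothelial markers 3 of 7 were also 2-fold higher. Their part in the lipogenic values was not tested.

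The siRNC and saline livers were both hepatectomised and differ in whether saline or ASCs-siRNC was given. The saline library also enters the comparison with naive liver above. A low saline value therefore counts in both, and they are not separate evidence. Of the 10 genes, 7 were higher in the siRNC liver by 2-fold or more: Mid1ip1 (2.54), Srebf1 (2.16), Fasn (2.13), Elovl6 (1.88), Thrsp (1.63), Acly (1.60) and Acacb (1.29). Acaca (0.28), Scd1 (0.18) and Mlxipl (0.028) were within 2-fold, and none was lower. The counting SD of the Elovl6 difference is up to 1.02. The background was 3.07% of all genes 2-fold higher and 2.45% 2-fold lower. Among the 3370 genes placed at higher levels, which leave out Elovl6, Acacb and Mlxipl, 2.02% were 2-fold higher. The median of the 10 was 1.61, against -0.0044 over all genes. Of stellate cell and matrix markers, 5 of 9 were also at least 2-fold higher in the siRNC liver (median 1.09), while macrophage markers had a median of -0.24 with 0 of 9 past 2-fold. Of 10 adipocyte markers, 5 passed the filter and none of them was 2-fold apart in this comparison. Adipoq, Lep, Retn and Plin1 were listed at 0 in all 4 libraries. Fabp4, which endothelial cells and macrophages also express, had -2.97, 0, 0.40 and 1.53 across naive, saline, siRNC and miR-27b liver, and Cfd had -0.96, 0.30, 0 and -0.097. The part of these markers in the result was not tested.

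The miR-27b and saline livers share the saline library with the comparison just given, so their values are set side by side and not counted as separate evidence. In the miR-27b liver 6 of the 10 were at least 2-fold higher than in the saline liver: Fasn (1.92), Srebf1 (1.45), Thrsp (1.33), Acacb (1.19), Mid1ip1 (1.18) and Acly (1.05). Scd1 lay just inside the threshold at 0.93, Elovl6 was at 0.61, Acaca at 0.31 and Mlxipl at -0.19. Of all genes 3.34% were 2-fold higher and 2.59% 2-fold lower, and the median of the 10 was 1.11, against 0.0018 over all genes. Near the threshold, Acacb was at 0.98 with a pseudocount of 5 and Acly at 0.93 when centred on the hepatocyte markers, each leaving 5 genes past 2-fold. Of 5 measured adipocyte markers, Fabp4 was 1.53 higher in the miR-27b liver, while 3 were below 0 and the median was -0.082. Of stellate cell and matrix markers 2 of 9 were 2-fold higher, and the part of both lists was not tested.

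**Figure D2:**
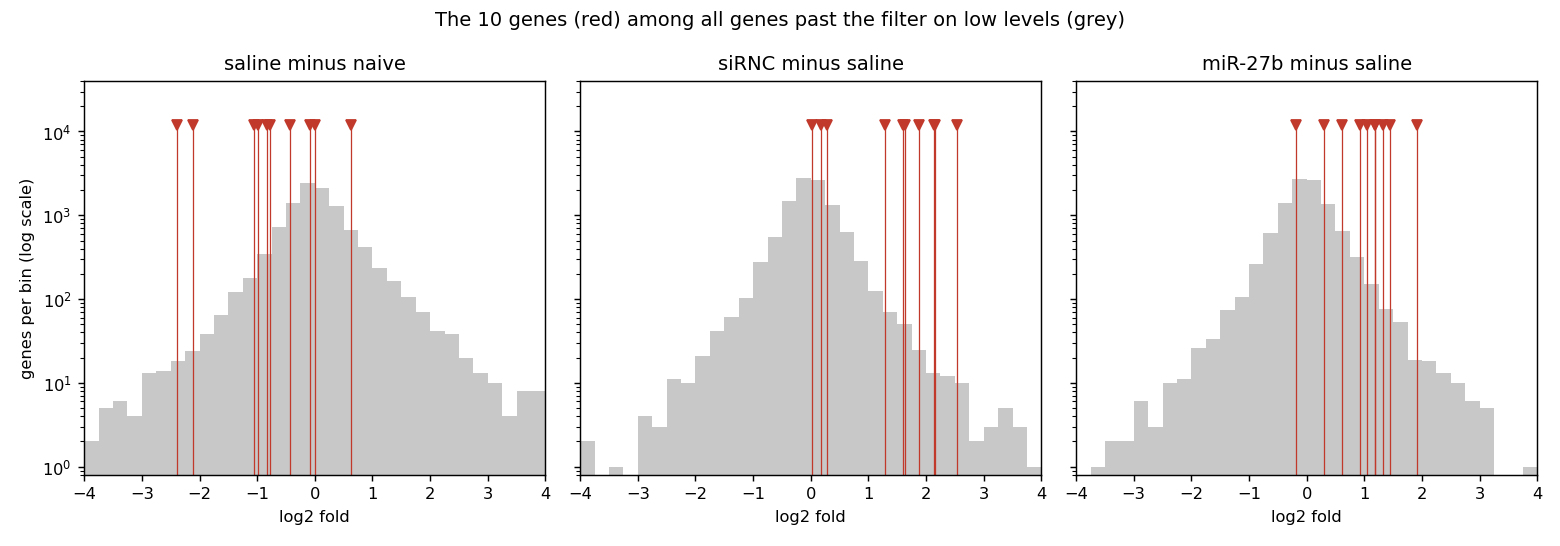
Histograms of log2 folds of all 10593 genes past the filter (grey, log2 fold from -4 to 4 in bins of 0.25, number of genes on a log scale) with the 10 genes as red lines, in 3 comparisons. In siRNC minus saline 7 red lines lie above 1, and in saline minus naive 3 lie below -1.

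Between the miR-27b and siRNC livers, which differ in the small RNA that the labels name with the ASCs, 2 of the 10 genes were past 2-fold. Mid1ip1 (-1.36) and Elovl6 (-1.27) were lower in the miR-27b liver by 2-fold or more, against 3.21% of all genes, and none was 2-fold higher, against 3.90%. Srebf1 was at -0.72, Acly at -0.55, Thrsp at -0.30, Mlxipl at -0.22, Fasn at -0.21 and Acacb at -0.10. Acaca (0.025) and Scd1 (0.74) lay above 0. The Elovl6 difference rests on the member with the least certain level and was -0.83 with a pseudocount of 5. The median of the 10 was -0.26. Of stellate cell and matrix markers 4 of 9 were 2-fold lower in the miR-27b liver, with Lum at -4.29 and Col1a1 at -2.50. That list was split, with 5 of 9 below 0 and 4 above, up to 0.87 for Acta2, and a median of -0.12. All 9 macrophage markers were above 0, with a median of 0.39, and the part of both lists in the result was not tested.

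Set against the naive library, which all 3 of these comparisons share, the siRNC liver had 4 of the 10 genes at least 2-fold higher. They were Elovl6 (1.79), Thrsp (1.64), Acly (1.16) and Fasn (1.14), with Srebf1 at 0.041 and Mid1ip1 at 0.15. None was 2-fold lower, Scd1 (-0.87) and Mlxipl (-0.80) being the lowest. Over all genes 7.17% were 2-fold higher and 4.29% 2-fold lower. In the miR-27b liver Thrsp (1.34) was at least 2-fold higher than naive, and Mid1ip1 (-1.21) and Mlxipl (-1.02) at least 2-fold lower, against 9.32% and 4.97% of all genes. The Mlxipl value fell short of 2-fold with a pseudocount of 5 (-0.84), and its counting SD is up to 0.51. Acaca was above naive in each hepatectomised liver, by 0.63 (saline), 0.91 (siRNC) and 0.94 (miR-27b), without reaching 2-fold in any. Macrophage markers were at least 2-fold above naive in 6 of 9 genes for the siRNC liver and 9 of 9 for the miR-27b liver. Stellate cell and matrix markers were so in 7 of 9 genes for siRNC (median 2.0) and 4 of 9 for miR-27b (median 0.97). Erythroid markers were so in 6 of 7 genes for each (medians 1.88 and 2.02), and endothelial markers in 2 of 7 and 4 of 7. The part of these lists in the lipogenic values was not tested.

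**Figure D3:**
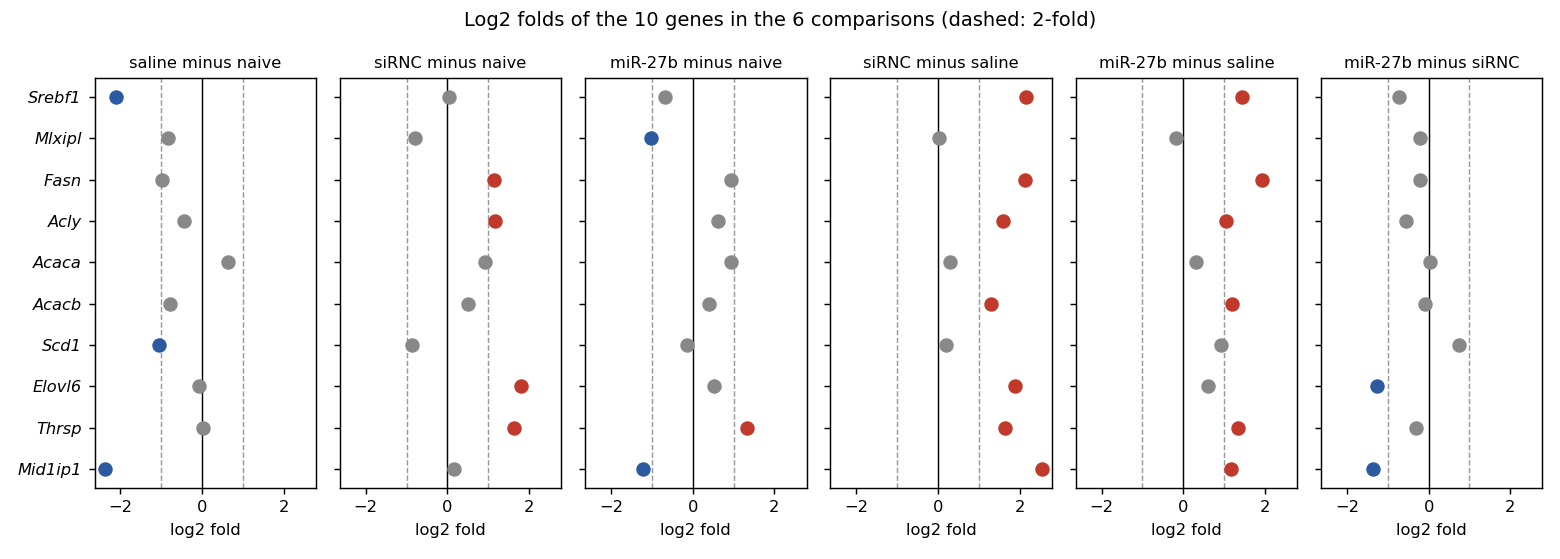
Log2 folds of the 10 genes (rows) in the 6 comparisons of the 4 libraries (panels), with red points at 2-fold or more higher, blue at 2-fold or more lower and grey between. Mlxipl, Acaca and Scd1 stay grey in the siRNC minus saline panel, where the other 7 genes are red.

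Likeness among the 10 genes is given as a description. The root mean square difference between the values of 2 genes over the 4 libraries, each centred on its own mean, was 0.25 for Srebf1 and Mid1ip1, which both combined a low saline with a high naive value. It was 0.24 for Acly and Acacb, 0.26 for Acly and Thrsp and 0.31 for Acly and Fasn. Scd1 and Mlxipl, with their highest values in the naive liver, were 0.44 apart, and Srebf1 was 0.79 from Mlxipl. Among named genes placed at higher levels outside the 10, those close to Srebf1 included Spef2 (0.19), Tmem79 (0.26), Nrip1 (0.38), Il1a (0.39), Lrp2 (0.39), Map3k10 (0.40) and Hrasls (0.41). Spef2 may be placed too high, since its stored values also match a few reads with saline at the lowest value a library can take. Nrip1 encodes a corepressor of nuclear receptors. These are descriptions over 4 libraries, and the closest of many genes will always lie near. Among genes noticed after their values were seen, Tmem79 was 0.089 from Mid1ip1, and the sterol synthesis genes Msmo1 and Mvd were 0.22 and 0.24 from Elovl6. The counting SD of a difference is up to 1.02 for Elovl6 and up to 0.51 for Acacb, more than these distances from them.

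Upstream of SREBP-1c lies the machinery that holds and cleaves the precursor. Of 13 measured genes of SREBP processing and partners, 1 was 2-fold lower in the saline than in the naive liver, against 4.66% of all genes. From saline to siRNC 1 was 2-fold higher and 1 lower, against 3.07% and 2.45% of all genes. From naive to miR-27b 2 were higher and 2 lower, against 9.32% and 4.97%. Mbtps2, a protease that cleaves the precursor, was named after its values were seen. Its log2 difference from naive was 1.15 for siRNC and 1.08 for miR-27b. These values rest on few recovered reads: 9.3 (naive), 14.3 (saline), 21.4 (siRNC) and 19.3 (miR-27b). At 16 normalized reads per library the counting SD of a difference is 0.51, and the naive library held fewer. Scap, the escort protein, had 0.088, 0.020, 0 and -0.019 across naive, saline, siRNC and miR-27b liver, and Srebf2 had -0.014, -0.089, 0.13 and 0. The INSIG retention proteins differed from each other. Insig1, itself a target of SREBPs, had 0, -0.45, 0.86 and 1.54, lowest in the saline liver and highest in the miR-27b liver. Insig2 had 1.60, 0.53, -0.85 and -0.16, highest in the naive liver and lowest in the siRNC liver. Nfya, a subunit of NF-Y, was at -1.30 in the miR-27b and 0 in the siRNC liver. Its level is placed only at 4 normalized reads or more, and the counting SD of its difference is up to 1.02.

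Among nuclear receptor inputs, Nr1h3, which encodes LXR alpha, had 0.16, 0.007, -0.016 and -0.007 across naive, saline, siRNC and miR-27b liver. Rxrg, which encodes RXR gamma and was named after its values were seen, had 0, -0.69, 0.24 and 0.36, and was 1.05 above saline in the miR-27b liver. Of 13 genes of LXR and RXR inputs none was 2-fold apart between the siRNC and saline livers. In miR-27b minus saline 1 was 2-fold higher, Rxrg, and 2 lower, Abcg5 and Abcg8, against 3.34% and 2.59% of all genes. The sterol exporter genes Abcg5 and Abcg8, known LXR targets, were highest in the naive liver (1.45 and 1.83) and lowest in the miR-27b liver (-0.56 and -0.93). Mylip, a ubiquitin ligase gene and known LXR target, was highest in the siRNC liver at 0.77.

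Of 12 genes of insulin signalling, 1 was 2-fold higher and 1 lower in siRNC minus saline, against 3.07% and 2.45% of all genes. In miR-27b minus siRNC 2 were higher and 1 lower, against 3.90% and 3.21%. Pklr, the liver pyruvate kinase and a ChREBP target, had 0, -0.29, -0.18 and 0.091 across naive, saline, siRNC and miR-27b liver. Igfbp1, which insulin represses, had -1.04, 0.83, -0.62 and 1.88, and Irs2 had -0.36, 0.41, -0.26 and 0.85. Both were highest in the miR-27b liver and lowest in the naive liver. Irs1 was highest in the naive liver at 0.94 and lowest in the siRNC liver at -0.49. Pik3r1 was highest in the siRNC liver (1.16).

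**Figure D4:**
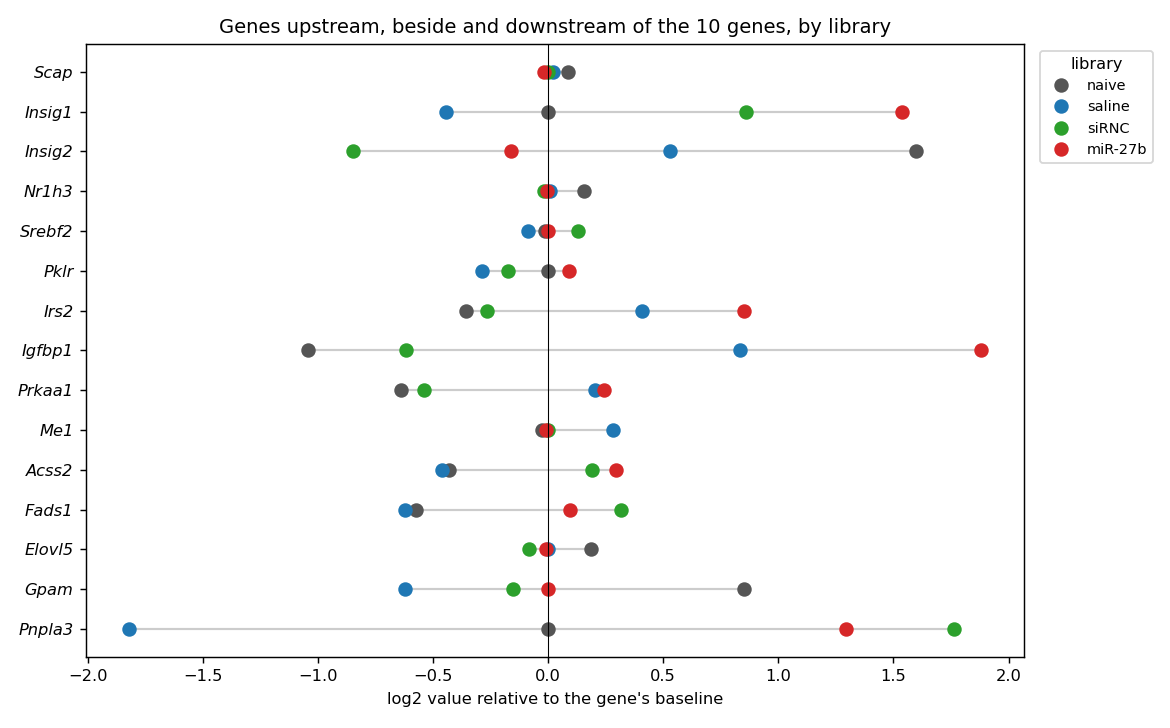
Deposited log2 values (horizontal axis, relative to the baseline of each gene) of 15 genes upstream, beside and downstream of the 10, with 1 point per library. Scap, Nr1h3 and Srebf2 span little, while Insig1, Insig2, Igfbp1 and Pnpla3 spread widely.

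The supply of carbon and reducing power was followed in 3 lists. None of 6 genes of AMPK, the kinase that inhibits acetyl-CoA carboxylase, was 2-fold apart from the saline liver in either ASC-treated liver, and 1, Prkag2, was 1.1 above naive in the miR-27b liver. Prkaa1 was at -0.64, 0.21, -0.54 and 0.24 across naive, saline, siRNC and miR-27b liver. None of 5 measured NADPH supply genes was 2-fold apart in any of the 6 comparisons, with malic enzyme Me1 at -0.025, 0.28, 0 and -0.011. Among 9 genes of citrate and acetyl-CoA supply, Pdk4, a kinase that switches off pyruvate dehydrogenase, lay just past 2-fold lower in siRNC than in saline liver and was 1.32 higher in miR-27b than in siRNC liver, the other 8 being within 2-fold in every comparison. Acss2, which makes acetyl-CoA from acetate, had -0.43, -0.46, 0.19 and 0.30.

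Further along, elongation and desaturation outside the 10 genes gave 13 measured rows, 2 of them for Fads2, and none was 2-fold apart from the saline liver in the naive, siRNC or miR-27b liver. One Fads2 row was 1.08 above naive in the miR-27b liver. Fads1, the delta-5 desaturase, had -0.58, -0.62, 0.32 and 0.095, and the Fads2 rows of the delta-6 desaturase were at -0.86 and -0.72 in the naive and 0.21 and 0.19 in the miR-27b liver. Elovl5 stayed between -0.082 and 0.19. Of 15 other SREBP-1c and ChREBP targets, 2 were 2-fold higher and 2 lower in the siRNC than in the saline liver. The shares of all genes were 3.07% and 2.45%. Pnpla3, a lipid droplet protein and SREBP-1c target, had 0, -1.82, 1.76 and 1.29 and was 3.58 above the saline value in the siRNC liver. Gpam, which starts glycerolipid synthesis, had 0.85, -0.62, -0.15 and 0. The other 3 past 2-fold in that comparison were Aacs (1.47), Lpin1 (-2.40) and G6pc (-1.65), of which Aacs and Lpin1 were named after their values were seen. Fgf21 was lowest in the siRNC liver (-1.64) and highest in the naive liver (1.24).

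Cholesterol synthesis is the branch run mainly by SREBP-2. In the siRNC liver 11 of 23 genes were at least 2-fold above saline (median 0.92), against 3.07% of all genes. In the miR-27b liver 1 of 23 was so (median 0.31), against 3.34%. Between the miR-27b and siRNC livers 4 of 23 (median -0.51) were 2-fold lower in the miR-27b liver, against 3.21% of all genes. Msmo1, a sterol demethylation enzyme, had 0, -0.31, 1.53 and -0.079, and Acat2 had -0.91, -0.55, 0.83 and 0.18, in the same library order. Fatty acid oxidation, the opposing pathway, had a median of -0.10 over 13 genes in siRNC minus saline, none past 2-fold, with Cpt1a at -0.81 and Ppara at -0.12. Ppargc1a was 1.12 higher in the miR-27b than in the saline liver.

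Clock genes, which control lipogenic genes over the day, also differed between the libraries. Of 13 measured, 4 were 2-fold higher and 5 lower in the saline than in the naive liver, against 6.83% and 4.66% of all genes. From saline to siRNC liver 6 were higher and 2 lower, against 3.07% and 2.45%. Dbp had -5.13, 0, 1.59 and -1.59 across naive, saline, siRNC and miR-27b liver. The sources used here do not state the hour of collection, and the part of the clock genes in the lipogenic values was not tested.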

How the data were processed

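The authors deposited 1 table of log2 normalized values for 4 libraries. DESeq (no version) and rat build rn5 are named in the submitters' processing notes, and a RefSeq gene list per the file headers. Aligner and read counter: not given in the sources used here. In all 12874 genes with a value other than 0, the deposited 0 lay at or between the middle values of the 4 libraries, so values are relative to a baseline near the median. Log2 folds are differences of deposited values, with no pseudocount. Reads were searched in steps of 1/101 of a read up to 200 reads, with whole reads beyond, and recovered at a posterior of 0.9 for 3626 genes, none of them among the 10. Kept were 1806 of these whose mean reached 10 normalized reads and 8787 others whose binary rounding shows at least 4. The stricter set of 3370 genes needed 50 reads or the class of 256. Chance can place a gene in too high a class, and a few genes with few reads may have passed the stricter filter in this way. The recovery was tested on simulated data. Members and lists were chosen with earlier results of these data known. Besides the 10, the text names the 3 genes of each pathway list with the largest fold in any comparison, 15 fixed genes and the 8 most like Srebf1. Some genes that this rule names are not reported here. Markers of other cell types are given by list. Endothelial markers (7 measured) had medians of 0.95 in saline minus naive and -0.24 in siRNC minus saline, cholangiocyte markers (2) 1.48 and -1.14, T and B cell markers (1) 0.97 and 0.047, and adipocyte markers (5) 0.97 and -0.10. Python 3.11.15, numpy 2.4.6 and pandas 2.3.3 were used. Alternatives were a pseudocount of 5, centring on all genes or on hepatocyte markers, other filters and a threshold of 1.5-fold.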

Additional observations from a re-analysis of the deposited data

How the results depend on the processing

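With 1 library per group no library could be left out, and counting error is the only error that can be bounded. No paired analysis was possible because each group holds 1 library. All 60 single folds of the 10 genes moved by less than the counting interval at the lowest level assumed for them. This held with a pseudocount of 5, centred on all genes and centred on the hepatocyte markers. Centring moves all 10 genes by 1 shared amount, at most 0.25 and below every interval, so it could not have failed. The interval is widest for Elovl6, which counted as unmoved though its siRNC minus naive fold went from 1.79 to 1.09 with the pseudocount. For the pseudocount, a gene whose reads are unknown was given the lowest level its stored digits allow. The median of the 10 in siRNC minus saline was 1.36 with the pseudocount. The number 2-fold lower in miR-27b minus siRNC became 1 with the pseudocount and 1 with the stricter filter, Elovl6 being lost, and in miR-27b minus naive 1 with the pseudocount, 1 with centring on all genes and 1 with the stricter filter, which keeps 7 of the 10, Mlxipl being lost. In miR-27b minus saline 5 were 2-fold higher with the pseudocount (without Acacb), 5 centred on the hepatocyte markers (without Acly) and 5 with the stricter filter.

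At 1.5-fold, only the counts of the 10 genes that went from 0 or changed by more than a factor of 1.5 are listed. Saline minus naive gave 1 higher and 6 lower (all genes 14.5% and 11.9%). The others listed were 2 lower in siRNC minus naive (11.1%), 4 higher in miR-27b minus naive (16.3%) and 1 higher in miR-27b minus siRNC (9.94%). Another 7 counts stayed closer to those at 2-fold, among them 5 higher in siRNC minus naive (14.5%). Srebf1 joined the lower genes in miR-27b minus naive (-0.67) and in miR-27b minus siRNC (-0.72). The count over all genes depends on the filter, as low genes carry more counting error. With no filter the genes 2-fold higher and lower were 1092 and 850 in saline minus naive, 1145 and 797 in siRNC minus naive, 614 and 518 in siRNC minus saline, 828 and 483 in miR-27b minus saline and 919 and 573 in miR-27b minus siRNC, with 1635 higher in miR-27b minus naive. With the stricter filter they were 170 and 97, 171 and 88, 68 and 43, 68 and 48, and 89 and 66 in the same order, and 245 and 105 in miR-27b minus naive.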
